A study of Mus musculus with 15 samples.

Results

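The genes described here encode the protein components of the mitochondrial ribosome, the particle that translates the messages of mitochondrial DNA. They were chosen by name alone, as every gene whose symbol was Mrpl or Mrps followed by a number and at most 1 further letter. That rule found 75 of the 20207 genes in the tables, of which 46 were named for the large subunit (Mrpl) and 29 for the small subunit (Mrps). The rule uses no measured value, but this gene family was picked with earlier results of these data known. All 75 were listed in all 15 samples.

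The mitochondrial ribosome makes the core subunits of the respiratory chain that mitochondrial DNA encodes. Its RNAs come from mitochondrial DNA too, but its proteins are encoded in the nucleus, translated in the cytosol, imported and assembled inside the organelle. Some have counterparts in the bacterial ribosome and others are found only in mitochondria. The names do not always give the place of a protein: the products of Mrps18a and Mrps30 are known to sit in the large subunit, and that of Mrps36 is known as a component of the oxoglutarate dehydrogenase complex.

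The messages were counted by poly(A) mRNA-seq in NIH3T3 mouse embryonic fibroblasts, an established line, and every sample carried the same stably integrated DD-sfGFP transgene. DD, a destabilizing domain derived from FKBP, keeps its fold only with its ligand Shield-1 (S1), a small molecule, and sfGFP is superfolder green fluorescent protein. The 5 control samples (cont, labelled time 0 and stress none) kept S1, whereas S1 had been taken away for 45 min in 3 samples (DD 45min), 135 min in 3 (DD 135min) and 405 min in 4 (DD 405min). Per the study's methods, S1 was withdrawn with a purified FKBP protein that takes it up. The methods describe cells sorted for their GFP level after integration, not a single clone, and the added FKBP protein was not given to cells without DD in the samples used here. The comparisons below ask whether the messages of the mitochondrial ribosome changed after an unfolded protein appeared in the cell, at each time and in each subunit. The labels do not say whether replicates were separate cultures, so p-values measure only the spread between these samples.

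The tables held 6652539 (control replicate 3) to 30258404 counts per sample, of which the 75 genes took 0.339% to 0.411%. Of the 12 fibroblast markers, 11 were at 1 RPKM or more (reads scaled by transcript length and depth) in every sample, and all 6 epithelial and all 4 endothelial markers stayed under 1 RPKM in every sample. Of the 6 haematopoietic markers 4 stayed under 1 RPKM, while Cd14 reached 2.66 and Cd68 1.9. Of the 4 neural markers found 3 stayed under it, while Tubb3 reached 1.23. By sign, 10 of the 12 fibroblast markers were lower at 405 min than in control. At an edgeR adjusted p under 0.05, 6 were lower and 0 higher (50%, beside 23.4% of the 10276 genes tested). At that threshold 1 of 2 tested haematopoietic markers was higher.

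The samples were split here into a pair of library sets that the labels do not name. The sets differ in how the log2 CPM of a gene (counts scaled to library size with TMM factors) depends on the GC content of its exons. The widest gap was between slopes of −0.672 and −0.384 log2 per 10 percentage points of GC. A gap nearly as wide parted control replicate 3 (−1.42) from control replicate 4 (−1.144), both put in set 1. The split is thus not sharp, and it was drawn from these same counts. Set 2 held 5 samples, namely control replicate 2, 45 min replicate 3 and 405 min replicates 1, 2 and 4. Set 1 held the other 10, including all 135 min samples. Control was thus 1 of 5 in set 2 and 405 min was 3 of 4, so a difference between the sets and a difference at 405 min overlap in this design. In an edgeR fit with group and set, 19 of 74 tested members were called higher and 24 lower in set 2 (58.1%), where called means an adjusted p under 0.05, beside 50.1% of the 10276 genes tested. Called members below are therefore also given with the library set as a covariate, and for some of them the change within each set is given.

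The promoters of 4 genes are shown first because the results below turn on these genes: Mrpl52, Mrpl33 and Mrpl28 kept their call at 405 min with the library set in the model, and Mrps18a had the highest change of the members in the fit on group alone. Each is the 250 bases before the RefSeq start of the gene (GRCm38.p6), 5′ to 3′ on the strand of the gene, and all 4 genes are on the plus strand. Capitals mark a match, on either strand, to 1 of 4 short motifs of factors known to act on nuclear genes for mitochondria or on stress genes: GCGCATGC (NRF1), CCGGAAG (ETS factors, among them GABP), AAGATGGC (YY1) and TGACNNNGC (the core of the antioxidant response element).
Mrpl52, chr14:54426659-54426908: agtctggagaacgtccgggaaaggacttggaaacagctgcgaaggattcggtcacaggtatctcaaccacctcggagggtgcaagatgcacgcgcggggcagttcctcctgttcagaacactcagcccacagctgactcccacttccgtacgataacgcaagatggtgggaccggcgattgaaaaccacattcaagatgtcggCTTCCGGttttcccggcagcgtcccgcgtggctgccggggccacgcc
Mrpl33, chr5:31613701-31613950: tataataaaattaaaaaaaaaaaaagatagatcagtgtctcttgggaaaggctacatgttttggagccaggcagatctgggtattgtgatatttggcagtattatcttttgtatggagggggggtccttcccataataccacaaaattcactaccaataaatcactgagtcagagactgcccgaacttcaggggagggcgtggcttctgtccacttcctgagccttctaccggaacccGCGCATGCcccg
Mrpl28, chr17:26123253-26123502: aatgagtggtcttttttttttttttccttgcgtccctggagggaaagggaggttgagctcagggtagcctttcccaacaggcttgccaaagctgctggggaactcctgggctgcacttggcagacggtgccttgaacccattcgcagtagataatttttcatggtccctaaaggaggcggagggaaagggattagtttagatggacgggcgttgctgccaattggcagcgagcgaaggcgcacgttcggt
Mrps18a, chr17:46110754-46111003: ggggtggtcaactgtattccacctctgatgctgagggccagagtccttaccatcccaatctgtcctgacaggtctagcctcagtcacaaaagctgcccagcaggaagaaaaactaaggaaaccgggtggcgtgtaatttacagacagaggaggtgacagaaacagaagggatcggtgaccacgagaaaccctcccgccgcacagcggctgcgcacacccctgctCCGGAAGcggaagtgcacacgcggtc

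The window of Mrpl52 held an ETS motif that began 47 bases before the start, and that of Mrps18a held one 26 bases before it. Past the bases shown, Mrpl52 had a further ETS motif from base 3 of the gene, and Mrps18a a YY1 motif from base 12. The window of Mrpl33 held an NRF1 motif 12 bases before the start, followed by an ETS motif that spans the start and is left in lower case. No letters of the 4 motifs were found in the window of Mrpl28. RefSeq gave a 300-base window (250 bases before the start and 50 after it) for 66 of the 75 members. The ETS motif was in 23 of the 66 (34.8%), beside 9.12% of 27025 windows of all genes. The YY1 motif was in 11 (16.7%, beside 2.88%), the NRF1 motif in 8 (12.1%, beside 2.8%) and the antioxidant response element core in 13 (19.7%, beside 12.5%). The ETS motif was in 12 of 40 windows of Mrpl genes and 11 of 26 of Mrps genes, and the NRF1 motif was in 7 of the 40 and 1 of the 26. No match shown overlaps another. These are matches of letters, not measured binding.

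In control cells the members were expressed at a common, moderate level with a few genes far above it. Levels are given as RPKM, as the authors deposited them, because that scale allows genes of different length to be compared. The median of the 75 control means was 14.7 RPKM, with 14.8 for Mrpl and 14.7 for Mrps, beside 5.05 for the 10276 tested genes. Of the members, 61 lay between 5 and 50 RPKM, and the highest was 94.7-fold above the lowest.

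The large subunit held the highest levels. Mrpl33, which has a bacterial counterpart, was at 178 ± 55.2 RPKM (SD, n = 5), Mrpl30 at 127 ± 42.7 and Mrpl52, found only in mitochondrial ribosomes, at 104 ± 32.7. They were followed by Mrpl18, a protein of the central protuberance that is bound to RNA, at 81.4 ± 19.7 and Mrpl13 at 65.1 ± 13.8. Neighbours in this order overlapped in their SDs, but the genes were measured in the same 5 samples, so the SDs do not show how firm the order is. Their order within each sample was not tested. Mrpl17 (3.05 ± 1.75) and Mrpl4 (3.31 ± 2.92), which have bacterial counterparts, were the lowest Mrpl genes.

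In the small subunit Mrps33, found only in mitochondrial ribosomes, stood alone at 105 ± 31.6 RPKM. Mrps6 (44.5 ± 7.25), Mrps15 (41.9 ± 14.5), Mrps21 (40.5 ± 14.4) and Mrps22 (37.8 ± 14.7) followed within 1 SD of each other. The lowest were Mrps27 (1.87 ± 1.26) and Mrps12 (4.97 ± 3.09), the latter the counterpart of a bacterial protein at the decoding centre. The reads of Mrps6 can also come from Slc5a3, whose exons overlap it on the same strand. Exons of 17 members overlapped those of another gene, so their values are uncertain to that extent, as are those of Mrpl23, Mrpl48 and Mrps36, which have named pseudogene copies.

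**Figure D1:**
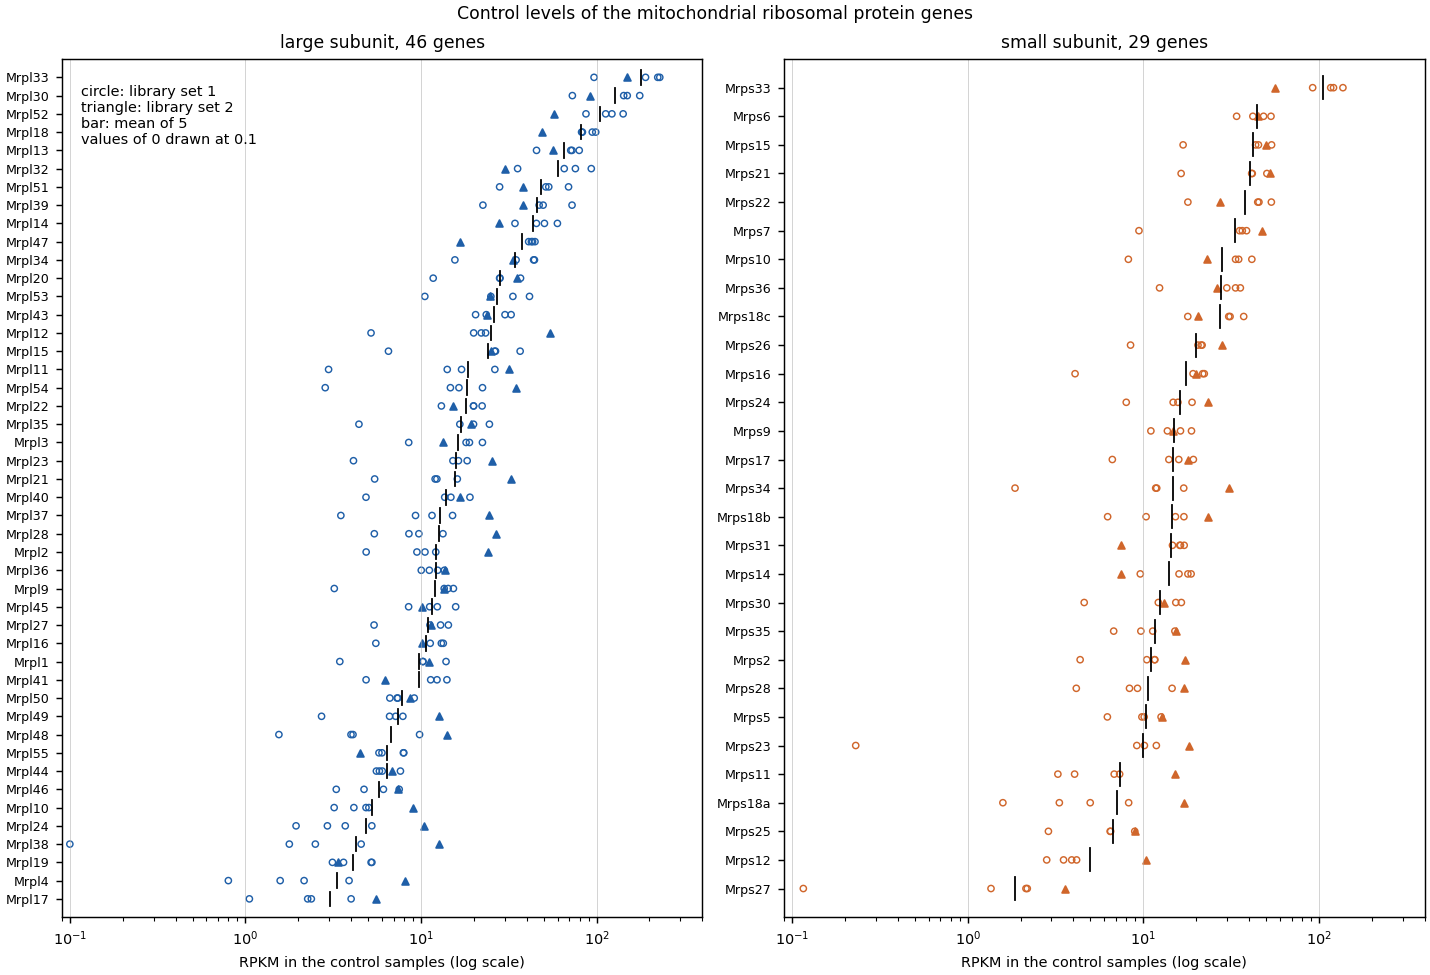
RPKM of each of the 46 Mrpl (left) and 29 Mrps genes (right) in the 5 control samples on a log axis, ordered by the mean (black bar). Circles are library set 1 and triangles set 2. Most genes lie between 5 and 50 RPKM, Mrpl33, Mrpl30, Mrpl52 and Mrps33 stand above 100, and the leftmost circle of most genes is control replicate 3, which was lowest in 63 of 75.

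The control samples varied about as much in the members as in other genes: the median CV of the members over the 5 controls was 28.7%, beside 32.9% for the tested genes. Control replicate 3, the shallowest sample, had a median member level of 6.25 RPKM, whereas the other 14 samples lay between 14.4 and 19.8. Its RPKM column also had the smallest sum over all genes. Tests were therefore made on counts, and the values below are CPM, which do not compare genes of different length.

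At 45 min no member differed from control. edgeR's quasi-likelihood test with Benjamini-Hochberg adjustment called 0 of the 74 members that had at least 1 count in every sample, and 0% of all 10276 genes. At an unadjusted p under 0.05 there were 4 members, 1 higher and 3 lower, beside 365 of the 10276 genes. DESeq2 called 0 members, beside 0.0584% of all genes. The median log2 fold change was 0.00 (0.02 over all genes). The 95% interval lay within 1 log2 unit of 0 for 49 of the 74 and for the other 25 a 2-fold change lay inside the interval.

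At 135 min no member was called either, while 1.46% of all genes were. The members' median was −0.04 (all genes −0.06), and 59 of 74 intervals lay within 1 log2 unit of 0. DESeq2 called 0 members, beside 4.18% of all genes. An unadjusted edgeR p under 0.05 was seen in 1226 of the 10276 genes and in 4 members. Mrps30, whose protein sits in the large subunit, was among them. Its CPM were 42.2, 38.9, 29.8, 53 and 46.9 in control and 62.6, 47.6 and 58.7 at 135 min, a log2 fold change of 0.41 ± 0.19 (SE) with an adjusted p of 0.387 in edgeR. The groups overlapped. The other 3 were Mrpl50, Mrpl36 and Mrpl55, all on the lower side and all named here after their values were seen.

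Mrpl55, a large-subunit protein, was at 13.5, 6.51, 19, 13.5 and 8.04 CPM in control and at 5.19, 7.31 and 7.26 at 135 min. Only control replicate 2, the control of set 2, lay within the range of the later samples. Its log2 fold change was −0.86 ± 0.32 with an edgeR adjusted p of 0.258. With the library set as a covariate it was −0.93 ± 0.27 with an adjusted p of 0.0488, the only member called there, beside 7.93% of all genes. This call was seen in that fit alone among those run.

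At 405 min 8 of the 74 members were called, 2 higher and 6 lower, that is 10.8%, whereas 23.4% of all genes were called (9.99% higher and 13.4% lower). The share was smaller among the members, and no test of that difference was made. Their median log2 fold change was 0.00, as for all genes, and the median absolute change was 0.42 (0.48 over all genes). Changes ran from −1.37 (Mrpl52) to 1.29 (Mrps18a). The count of calls rested on single samples: it was 18 higher and 17 lower without control replicate 2, the only control of set 2 (47.3% of the members, beside 48.4% of all genes in the same fit). It was 6 higher and 13 lower without 405 min replicate 3 (25.7%, beside 34.6%). It was 0 and 1 without 405 min replicate 2 (1.35%, beside 11%), and 0 and 2 without control replicate 1 or 4 (2.7%, beside 14.3% and 13.3%). Without 405 min replicate 1 or 4 no member was called (beside 9.42% and 9.33%). The CPM ranges of control and 405 min did not overlap for 2 members, Mrpl34 below and Mrps35 (0.22 ± 0.16, not called, named after its values were seen) above control, beside 13.2% of all genes.

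**Figure D2:**
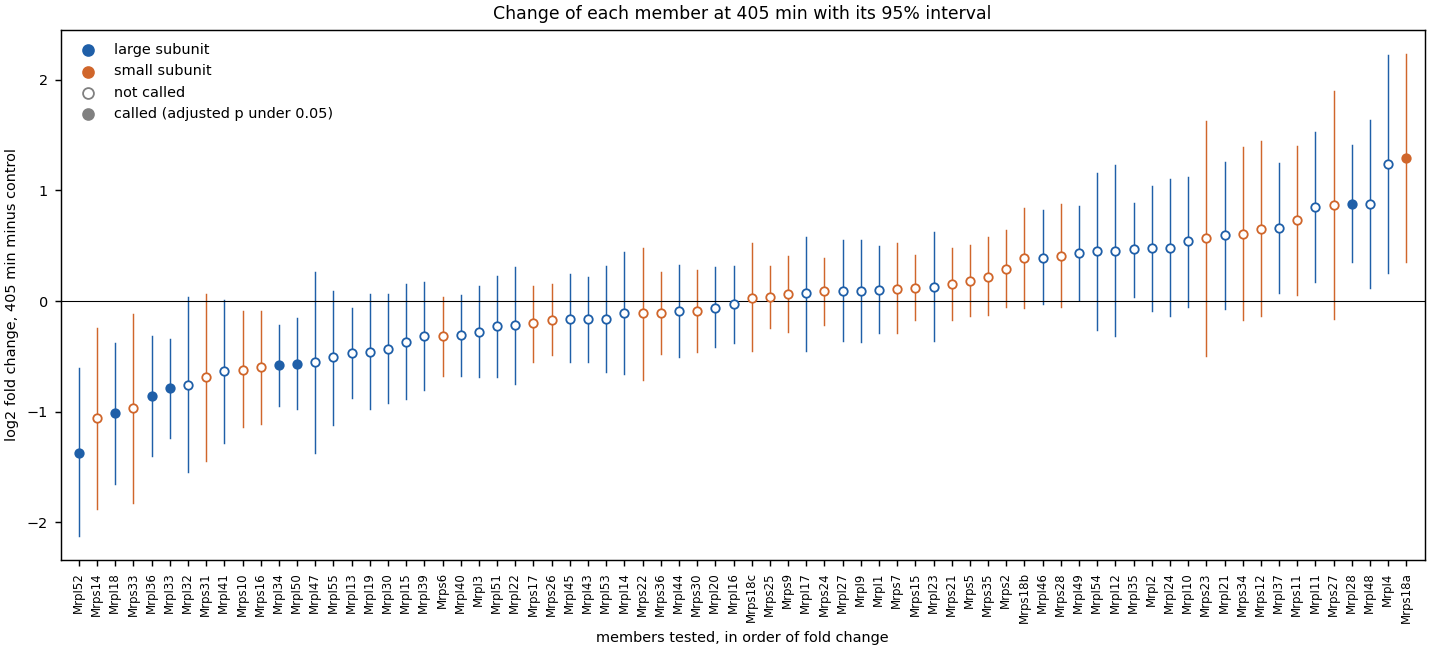
Log2 fold change at 405 min against control of the 74 tested members in order of size, with 95% intervals. Blue is the large and orange the small subunit by gene name, and filled points are called. In this fit the 6 called falls are all of Mrpl genes, and the called rises are Mrpl28 and Mrps18a.

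Mrpl52 had the lowest value in the fit on group alone, whereas Mrpl36 was lower with the library set as a covariate and within either set. The Mrpl52 mRNA, from a gene on chromosome 14 (55045746 to 55048587, mm9) whose promoter is shown above, was at 101, 43.9, 146, 127 and 90.2 CPM in control, and at 32.6, 30.1, 64.5 and 30.2 at 405 min. The set 2 control, 43.9, lay among the values of the 405 min samples, but within each set every 405 min sample was below every control. The log2 fold change was −1.37 ± 0.35 (adjusted p = 0.016 in edgeR). With the library set as a covariate it was −0.66 ± 0.16 (adjusted p = 0.01), and within set 1 and within set 2 it was −0.85 ± 0.25 and −0.51 ± 0.22, neither called. Each of these within-set values has a group of 1 sample, which is taken to vary like the others.

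Mrpl33, the member with the highest control level, fell too. Its gene is on chromosome 5 (31916345 to 31925014). It was at 183, 122, 174, 214 and 181 CPM in control, at 171, 180 and 121 at 45 min, at 134, 151 and 152 at 135 min and at 65.7, 109, 141 and 89.3 at 405 min. The lowest control and the 45 min sample at 121 were those of set 2, and in both sets the 405 min samples lay below the controls. The change at 405 min was −0.79 ± 0.21 (adjusted p = 0.0192, edgeR), and −0.46 ± 0.14 (adjusted p = 0.0458) with the set as a covariate.

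Mrpl28, which has a bacterial counterpart and lies on chromosome 17 (26260477 to 26263558), was called higher at 405 min, but not in every fit. It was at 21.9, 51.2, 22.8, 19.2 and 24.7 CPM in control, at 40.7, 30.3 and 44.3 at 45 min, at 37.2, 29.6 and 36.6 at 135 min and at 58.1, 51.3, 46.5 and 50.7 at 405 min. The control at 51.2 was the set 2 sample, and it lay above 405 min replicate 4, also of set 2. The 4 set 1 controls were below all 10 samples taken after S1 removal. The change at 405 min was 0.88 ± 0.25 (adjusted p = 0.024, edgeR) and 0.62 ± 0.19 (adjusted p = 0.0421) with the set as a covariate. It was 1.06 ± 0.24 within set 1 and 0.05 ± 0.22 within set 2. In an edgeR fit with an offset for GC content it was 0.40 ± 0.16 and lost its call (adjusted p = 0.0754). Mrpl52 (−1.95 ± 0.53) and Mrpl33 (−0.68 ± 0.16) kept theirs in that fit.

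Mrps18a, on chromosome 17 (46247953 to 46265857), had the highest change in the fit on group alone and the highest set difference. It was at 6.26, 27.5, 5.58, 9.38 and 12.8 CPM in control and at 37, 33, 14.1 and 37.4 at 405 min. The 27.5 of control replicate 2 and the 29.6 of 45 min replicate 3, both set 2, stood above every set 1 sample of any time. The change was 1.29 ± 0.44 (adjusted p = 0.0464, edgeR), and the set difference itself was 1.38 ± 0.22. In both sets the 405 min samples lay above the controls, but the gene was not called with the set in the model (0.61 ± 0.26, adjusted p = 0.135, about the value of Mrpl28 there).

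The other 4 called members fell and have large-subunit products. Mrpl18 (chromosome 17, 13104221 to 13108957) was at 197, 86.7, 324, 206 and 141 CPM in control and at 78.7, 87.6, 130 and 81.9 at 405 min, a change of −1.01 ± 0.30 (adjusted p = 0.0268, edgeR). Its exons overlap Tcp1 on the other strand. The set 2 control fell among the 405 min samples, and the change was −0.49 ± 0.22 with the set as a covariate (adjusted p = 0.163). It was −0.75 ± 0.34 within set 1 and −0.08 ± 0.21 within set 2.

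Mrpl34 (chromosome 8, 73988825 to 73989652) was at 61.5, 40.3, 41, 62.2 and 40.2 CPM in control and at 29.9, 34.1, 35.3 and 31.6 at 405 min, the only called member whose groups did not overlap. Its change was −0.58 ± 0.17 (adjusted p = 0.027, edgeR), and its set difference, −0.28 ± 0.15, was not called. The change was −0.43 ± 0.17 with the set as a covariate and lost its call (adjusted p = 0.11).

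Mrpl36 (chromosome 13, 73468457 to 73469626) was at 26.7, 23, 45.7, 21.9 and 16.2 CPM in control, at 18.1, 20.1 and 16.1 at 45 min, at 14.2, 17.8 and 17 at 135 min and at 14.7, 15.5, 11.8 and 16.4 at 405 min. Of the 10 later samples 5 lay below the lowest control, and control replicate 3 stood apart at 45.7. The changes were −0.55 ± 0.28, −0.70 ± 0.28 and −0.86 ± 0.25 at the 3 times, the last with an edgeR adjusted p of 0.0274. The set difference was −0.04 ± 0.25. The change at 405 min was −0.83 ± 0.29 with the set as a covariate and lost its call (adjusted p = 0.0689), and it was −1.22 ± 0.49 within set 1 and −0.58 ± 0.25 within set 2.

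Mrpl50 (chromosome 4, 49525469 to 49533955), found only in mitochondrial ribosomes, was at 41.9, 33.6, 56.8, 33.8 and 27.5 CPM in control, at 24.4, 27.1 and 25 at 135 min and at 27.2, 28.3, 21 and 27.8 at 405 min. All 135 min samples lay below all controls, whereas at 405 min the ranges overlapped. The change was −0.60 ± 0.21 at 135 min (adjusted p = 0.247) and −0.57 ± 0.20 at 405 min (adjusted p = 0.0489, edgeR), with a set difference of 0.06 ± 0.19. At 405 min it was −0.59 ± 0.22 with the set as a covariate and lost its call (adjusted p = 0.0884). Of the 8 called members, Mrpl50, Mrpl36 and Mrpl34 were those whose set difference was not called, and none of them was called with the set in the model.

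**Figure D3:**
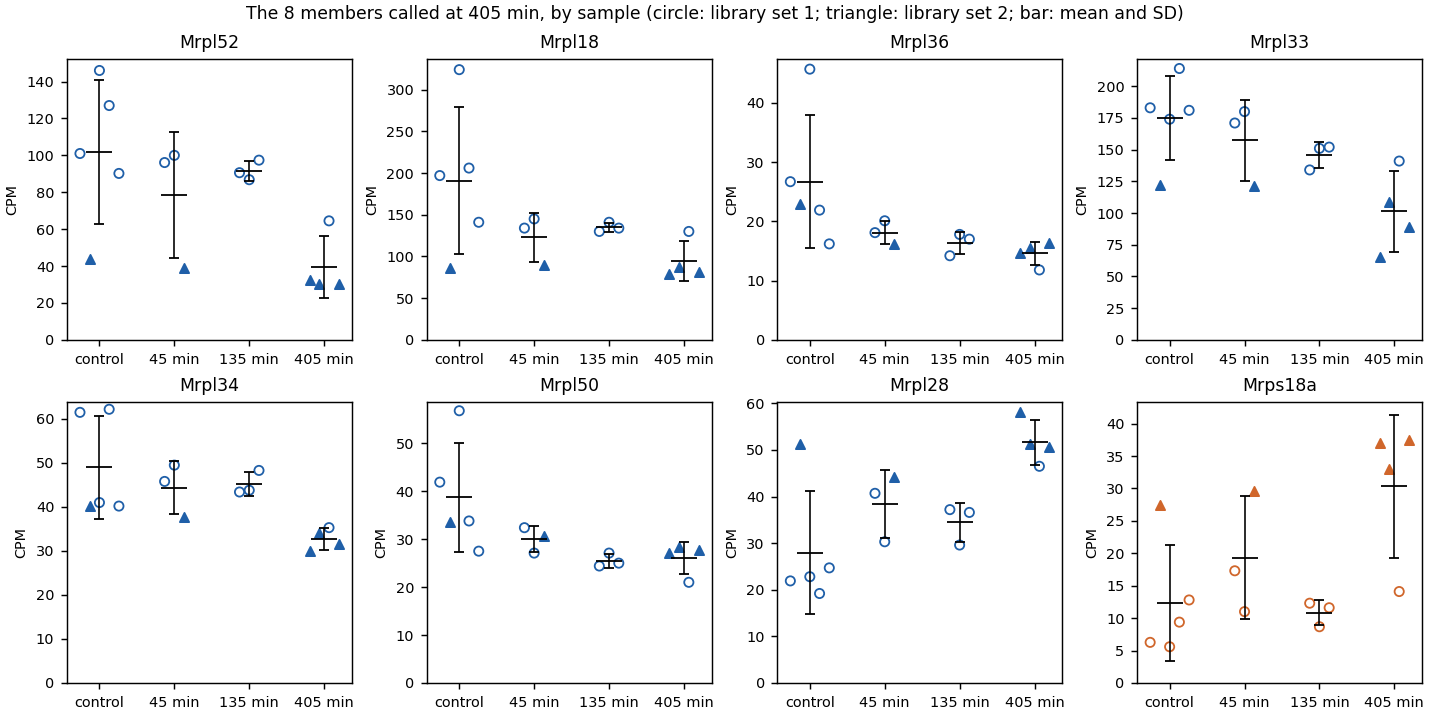
CPM of the 8 members called at 405 min in each of the 15 samples, with group mean and SD; circles are library set 1 and triangles set 2. For Mrpl52, Mrpl18, Mrpl33, Mrpl28 and Mrps18a the set 2 control lies toward the 405 min samples, and for Mrpl34, Mrpl36 and Mrpl50 it lies among the other controls.

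In the fit on group alone, the change at 405 min ran with the set difference across the members. Over the 74 members, the set difference and the change at 405 min had a Pearson correlation of 0.865 and a Spearman correlation of 0.86 (0.756 over all tested genes). Most 405 min samples but only 1 control are of set 2, so the change on group alone contains part of the set difference. Some positive correlation thus follows from the design. The values are only a description across genes that share all their samples. The set difference ran from −1.43 (Mrps33) to 1.38 (Mrps18a), and exceeded 1 log2 unit in 11 members. With the set as a covariate the median absolute change of the members at 405 min was 0.18 in place of 0.42, and 3 were called (Mrpl28 higher, Mrpl33 and Mrpl52 lower), beside 13% of all genes. Control, 45 min and 405 min each held samples of both sets, so that fit estimates the set and the time separately, with 1 control in set 2 and 1 sample at 405 min in set 1.

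**Figure D4:**
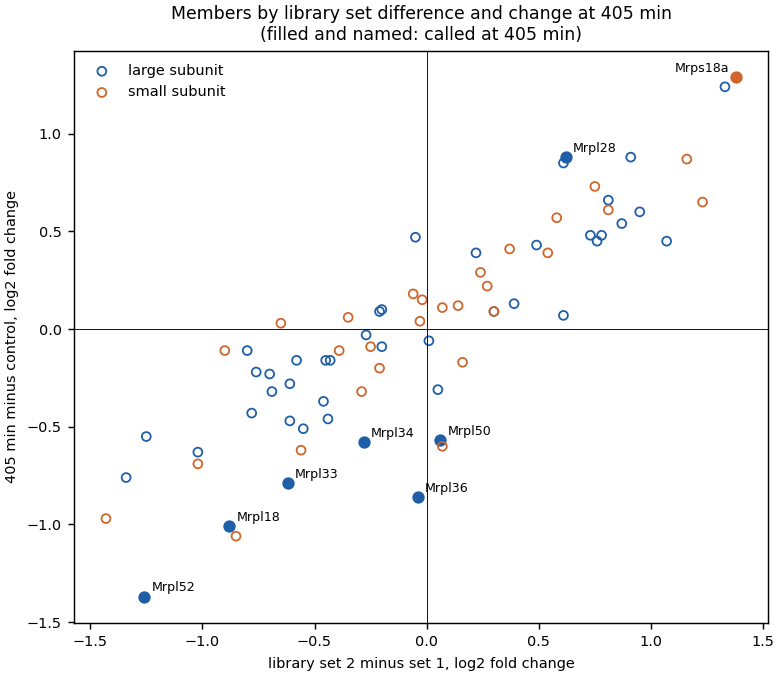
Each of the 74 members by its difference between library sets (x axis, set 2 minus set 1) and its change at 405 min (y axis), both as log2 fold change; filled points are the 8 called members. The points follow a rising line, and Mrpl36, Mrpl50 and Mrpl34 lie below it near a set difference of 0. The change is that of the fit on group alone, which by design contains part of the set difference.

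The order of samples within the sets was compared as well, after the values had been seen. In 12 of the 74 members every 405 min sample lay beyond every control in the same direction in set 1 (1 against 4 samples) and in set 2 (3 against 1), 6 above and 6 below, beside 31.5% of all genes. Of the 8 called members, 6 lay below in both sets or above in both sets, and a further 6 members did so without being called.

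Between 135 and 405 min no member was called, beside 5.06% of all genes. An unadjusted edgeR p under 0.05 was seen in 14 of the 74 members, beside 2838 of the 10276 genes. The median log2 fold change was 0.04, as over all genes. DESeq2 called 4 members in this comparison, namely Mrpl10, Mrpl2 and Mrps18a higher and Mrpl52 lower, of which Mrpl2 is named only for this count (5.41% of the members, beside 14.3% of all genes). With only these 2 groups in the fit 12 members were called higher and 5 lower (22.7%, beside 26.3%). All 135 min samples were of set 1 and 3 of 4 samples at 405 min of set 2. With the set as a covariate 0 members were called (beside 3.68%), and within set 1, where 405 min replicate 3 is the 1 later sample, 0 members and 0 genes. Mrpl52 was at −0.35 ± 0.18 and −0.52 ± 0.25 in those fits, and Mrps18a at 0.35 ± 0.31 and 0.36 ± 0.48.

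The mean levels of the subunits differed between the times by less than the SD of the controls. The mean log2 CPM of the Mrpl genes was 5.28 ± 0.08 in control, 5.29 ± 0.09 at 45 min, 5.26 ± 0.06 at 135 min and 5.27 ± 0.06 at 405 min. For the Mrps genes it was 5.15 ± 0.20, 5.28 ± 0.09, 5.22 ± 0.07 and 5.29 ± 0.04. The control SD of the Mrps genes rests largely on control replicate 3, at 4.81, whereas the other controls were at 5.23, 5.30, 5.24 and 5.19. The large minus small difference was 0.123 ± 0.136 in control and −0.016 ± 0.039 at 405 min. Control replicate 3 alone had 0.339, and the other controls lay between −0.038 and 0.123.

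The change of that difference at 405 min was −0.139, just over the control SD of 0.136. Without control replicate 3 it was −0.085. Within set 1, with control replicate 3 included, it was −0.125. In set 2 the control was at −0.038 and the 405 min samples lay around it, at −0.021, −0.032 and −0.05. The change took the opposite sign, 0.078, when the median over the genes was used in place of the mean. In the 3 groups that held both sets, the set 2 samples had the lower differences, all of them below 0. At 405 min 1 Mrpl gene rose and 6 fell of 45, and 1 Mrps gene rose and 0 fell of 29. With Mrps18a and Mrps30 counted in the large subunit, 2 rose and 6 fell of 47 (17%, beside 23.4% of all genes). With these genes and Mrps36 taken out of the small subunit, 0 of 26 were called. At an unadjusted p under 0.05 there were 7 Mrpl genes higher and 7 lower, and 2 Mrps genes higher and 4 lower. Over all 10276 genes 1925 were higher and 2297 lower at that level. The median changes were −0.11 for Mrpl and 0.09 for Mrps, and 0.06 and 0.08 with the set as a covariate. The split of the calls between the subunits was not tested and moved with the setting: DESeq2 also called Mrps10, Mrps14, Mrps16 and Mrps33 (15 members in all, beside 33.2% of all genes), and the fit with a GC offset Mrps10, Mrps16 and Mrps24 (12 members, beside 27.5%). These genes are named only for these counts.

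**Figure D5:**
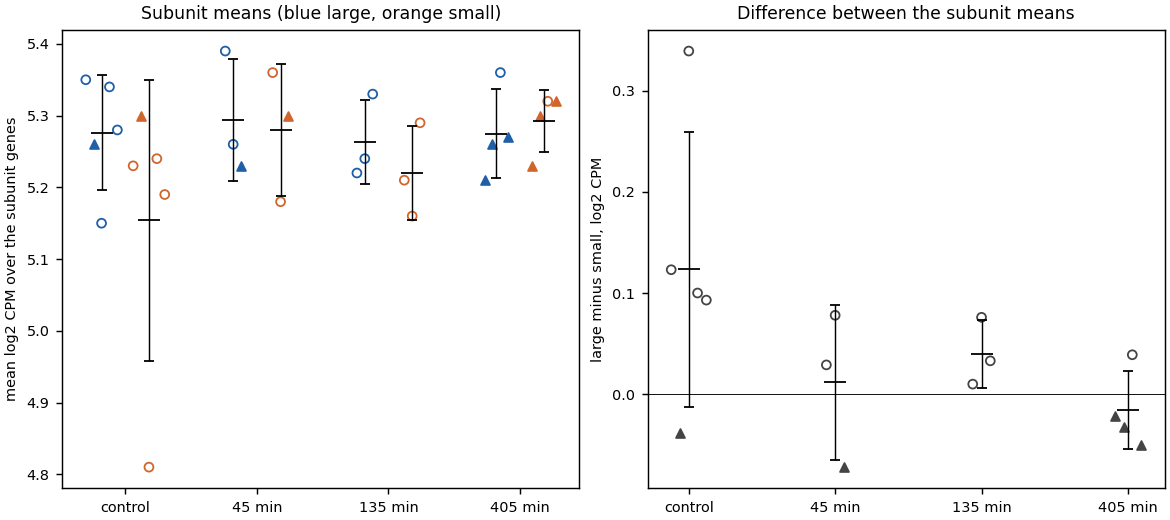
Mean log2 CPM over the Mrpl (blue) and Mrps (orange) genes in each sample (left) and their difference (right), with group mean and SD; circles are library set 1 and triangles set 2. Control replicate 3 has the lowest Mrps mean, 4.81, and all 5 set 2 samples have a negative difference.

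Calls by the part of the ribosome stand beside 23.4% of all genes called at 405 min, and no test of a group was made. Of the 30 Mrpl genes with a bacterial counterpart 1 rose and 4 fell at 405 min (16.7%, median −0.04). Of the 15 tested Mrpl genes found only in mitochondria 0 rose and 2 fell (13.3%, median −0.16). None of the 16 Mrps genes with a bacterial counterpart (median 0.10) or the 9 found only in mitochondria (median 0.04) was called. Of the 8 genes for proteins near the tunnel exit, where new chains leave the ribosome, none was called (changes −0.55 to 0.48), and in the central protuberance Mrpl18 was the called one of 6 tested.

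The stalk recruits translation factors, and its 3 genes had positive values at 405 min in the fit on group alone, none of them called. Their median was 0.54 there and 0.04 with the set as a covariate. Mrpl11 was at 25.2, 48.3, 9.94, 30.4 and 38.7 CPM in control and at 54.6, 60.9, 42.9 and 62.2 at 405 min, a change of 0.85 ± 0.32 (adjusted p = 0.0645, edgeR). Within each set its 405 min samples lay above the controls, and with the set as a covariate the value was 0.53 ± 0.29. Mrpl12 (0.45 ± 0.36) ranged from 20 to 95.8 CPM in control and from 41.1 to 93.2 at 405 min, with its highest control in set 2, and turned to −0.07 ± 0.23 with the set as a covariate (−0.37 ± 0.23 within set 2). Mrpl10 (0.54 ± 0.28) was at 15.1, 28.1, 22, 17.8 and 15.2 CPM in control and at 35.4, 28.5, 17.2 and 32.7 at 405 min. The value of 17.2 was the set 1 sample, and with the set as a covariate the change was 0.04 ± 0.17 (−0.03 ± 0.30 within set 1).

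The 3 Mrps18 paralogues, which descend from 1 ancestral gene, all had positive values at 405 min, of which that of Mrps18a was called. Mrps18b was at 35, 45.7, 26.8, 23.8 and 32.1 CPM in control and at 54.5, 40, 34 and 42.9 at 405 min (0.39 ± 0.21, adjusted p = 0.174, edgeR). Mrps18c was at 40.8, 19.2, 36.6, 33.5 and 28 CPM in control and at 28.1, 29.1, 43.3 and 28.8 at 405 min, a change of 0.03 ± 0.23. Its set 2 samples were the lower ones, the reverse of Mrps18a, and with the set as a covariate Mrps18c was at 0.40 ± 0.17 (adjusted p = 0.136; 0.31 within set 1 and 0.57 within set 2) and Mrps18b at 0.10 ± 0.17. The differences between the paralogues were not tested.

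Mrps36 was at 48.9, 33, 33.8, 43.6 and 42.9 CPM in control and at 31, 33.2, 50.2 and 35.5 at 405 min, with a change of −0.11 ± 0.17 and an interval from −0.48 to 0.26. Mrps30 was at 36.1, 40.6, 47.4 and 34.8 CPM at 405 min, a change of −0.09 ± 0.17. These values were 0.09 ± 0.15 for Mrps36 and 0.04 ± 0.17 for Mrps30 with the set as a covariate. Mrpl38 was the member not tested, because control replicate 3 had 0 counts of it, out of 6652539. Its other controls were at 5.46, 33, 7.68 and 11.5 CPM and its 405 min samples at 47.4, 24.5, 12.8 and 34.

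Other genes of mitochondrial translation were taken from lists chosen by function. Calls in these lists stand beside 23.4% of all genes at 405 min (13% with the set as a covariate). At 135 min the share of all genes was 1.46% (7.93% with the set as a covariate). Of the 7 further ribosomal proteins under other names, 6 were tested and 3 called at 405 min: Ict1, a peptide release factor built into the large subunit, rose by 0.91 ± 0.25, whereas Chchd1 (−0.84 ± 0.21) and Mrp63 (−1.01 ± 0.26) fell. Their median was −0.11. With the set as a covariate Ict1 (0.55 ± 0.16) and Mrp63 (−0.58 ± 0.14) were still called, and Chchd1 was not (adjusted p = 0.0523, edgeR).

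Among 17 translation factors 2 rose and 2 fell at 405 min (median 0.09). Tufm, the mitochondrial elongation factor that brings aminoacyl-tRNA to the ribosome, was at 55, 92.5, 34.3, 50.8 and 37.7 CPM in control and at 162, 119, 75.9 and 127 at 405 min. Its change was 1.16 ± 0.28 (adjusted p = 0.012, edgeR), and with the set as a covariate 0.71 ± 0.17 (adjusted p = 0.0121). Gtpbp3, a tRNA-modifying enzyme, rose by 0.99 ± 0.29, while Tsfm, the exchange factor of Tufm, fell by 0.76 on the log2 scale, and Gatc, of the tRNA amidotransferase, by 0.59. The last 3 were not called with the set in the model.

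Of 17 tested assembly factors Ngrn alone was called at 405 min (−0.80 ± 0.26; median of the list 0.37), and it lost the call with the set as a covariate (−0.43 ± 0.20, adjusted p = 0.179). Of 15 mitochondrial aminoacyl-tRNA synthetases, which charge the tRNAs, 2 rose and 2 fell (median −0.01). These were Aars2 (1.30 ± 0.42) and Cars2 (0.74 ± 0.23), and Rars2 (−1.36 ± 0.32) and Iars2 (−0.77 ± 0.15). Both falls were also called with the set as a covariate and both rises were not.

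In mitochondrial transcription and RNA processing 2 of 14 genes rose at 405 min, Elac2 (0.94 ± 0.32), which cuts tRNA ends, and Lrpprc (0.40 ± 0.11), which stabilises mitochondrial mRNA, and Tfam, which packages and transcribes mitochondrial DNA, fell (−0.84 ± 0.21). Of these, Lrpprc was called with the set in the model. At 135 min Mterf (−1.75 ± 0.49), Ssbp1 (−0.53 ± 0.15) and the assembly factor Ngrn (−0.87 ± 0.20) were called lower in that fit. They were not called at that time in the fit on group alone. Of 16 mitochondrial chaperones and proteases 0 were called at 405 min in the fit on group alone. Grpel1, a cofactor of the mitochondrial Hsp70, was called with the set as a covariate (0.54 ± 0.12, adjusted p = 0.00625, after 0.37 ± 0.14 without it), and Dnaja3, a co-chaperone, was called at 135 min (−0.79 ± 0.17).

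Of 10 regulators of nuclear genes for mitochondria 2 were called at 135 min, both lower (median −0.23). That is 20%, beside 1.46% of all genes and no member, in the fit on group alone. With the set as a covariate these 2, Myc and Ppargc1a, were again called lower. In that fit 1 regulator, Esrra, was called higher (0.73 ± 0.21, adjusted p = 0.0439, edgeR), beside 7.93% of all genes called. Myc fell from 164, 169, 254, 135 and 117 CPM in control to 51.4, 61.3 and 58.5 (−1.55 ± 0.23, adjusted p = 0.0021, edgeR), and the groups did not overlap. Ppargc1a, a coactivator of mitochondrial biogenesis, fell from 36, 41.5, 57.4, 42.5 and 67 CPM to 22, 21.8 and 21.9 (−1.16 ± 0.23, adjusted p = 0.0236). It was at 41.5, 48.3, 67.8 and 63.8 CPM at 405 min, the value of 67.8 being the set 1 sample, a rise of 1.34 ± 0.24 over 135 min (adjusted p = 0.0102). All 135 min samples belong to set 1, and within that set the 135 min samples of both genes were below all controls.

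At 405 min 4 of the 10 regulators were lower and 0 higher (median −0.31), that is 40% beside 23.4% of all genes. The 4 were Myc (−1.15 ± 0.20), Gabpa (−0.78 ± 0.26), Gabpb2 (−0.63 ± 0.12) and Nrf1 (−0.53 ± 0.17). Gabpa and Gabpb2 encode subunits of the ETS factor GABP, whose motif was searched above, and Nrf1 the factor of the NRF1 motif. Myc and Gabpb2 were called with the set as a covariate too. In the windows of the 8 members called at 405 min, the ETS motif was in 5 (beside 34.8% of all members' windows), the antioxidant response element core in 3 (19.7%), the YY1 motif in 2 (16.7%) and the NRF1 motif in 1 (12.1%). No test of these counts was made.

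The proteins of the cytosolic ribosome gave the nearest comparison. Of 80 such genes found, 72 were tested, and 4 rose and 4 fell at 405 min (11.1%, beside 23.4% of all genes), with a median of −0.20. With the set as a covariate 1 of them was called (beside 13% of all genes) and the median was −0.01. The difference between the mitochondrial and cytosolic lists was not tested.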

How the data were processed

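Samples were grouped by their titles (cont, n = 5; DD 45min, n = 3; DD 135min, n = 3; DD 405min, n = 4). According to the methods, the authors sequenced poly(A) RNA, aligned reads to mm9 and quantified RefSeq genes on the DNAnexus platform; the aligner is not given in the sources used here. The authors deposited expected counts, which need not be whole and were rounded here (whole counts had been assumed), and an RPKM value per gene, used here for levels between genes. The authors also deposited a Z score of each RPKM value and a ratio of RPKM to its root mean square, which were not used.

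Genes without a count in any 1 sample were dropped, and the 10276 left were fitted in 1 edgeR 4.0.16 quasi-likelihood model of group over 15 samples (R 4.3.3, TMM), with Benjamini-Hochberg adjustment over all genes and a threshold of 0.05. The SE is the log2 fold change over the root of its F statistic. Log2 CPM used a prior count of 2. Total counts ranged from 6652539 to 30258404; the members' mean counts had a median of 706 and a minimum of 145. No replicate pair agreed within sampling noise (chi-square per degree of freedom 9.97 to 237 over 22 pairs). Library sets were split at the largest gap in the slope of log2 CPM on exonic GC (mm9 genome, GENCODE vM1, from which gene positions also come). The procedure was tested on simulated data.

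The members and gene lists were chosen with earlier results of these data known. Named were called members, the Mrps18 paralogues, Mrps30, Mrps36, the stalk genes, the 5 highest and 2 lowest genes of each subunit in control, and called genes of the other lists (at most 4 each). Alternatives were DESeq2 1.42.0, RLE scaling, no filter, only the groups compared, a replicate block, the library set as a covariate, each set alone, a GC offset, and leaving out each sample. The sfGFP-only, heat shock, tunicamycin and bortezomib samples of the study were not analysed here.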

Additional observations from a re-analysis of the deposited data

Results flagged for a closer look

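Of 40 sets of 4 or 5 values examined for a sample far from the others, 6 held one, beside about 1 in 20 that chance gives. In control, Mrpl28 was at 51.2 CPM in replicate 2 and at 19.2 to 24.7 in the other 4. The geometric mean CPM of the small-subunit genes was 28.1 in control replicate 3, the shallowest sample, and 36.4 to 39.4 in the other controls.

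At 405 min all 4 such values came from replicate 3, the sample of that group in library set 1. Mrpl52 was at 64.5 CPM there and at 30.1 to 32.6 in the others, Mrps18c at 43.3 (others 28.1 to 29.1) and Mrpl55 at 10.4 (others 7.54 to 8.02), whereas Mrpl50 was lower, at 21.0 (others 27.2 to 28.3). The part of the library set in these values was not tested.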

How the results depend on the processing

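No call at 405 min changed sign under the alternatives run, but the number of calls moved. For 405 min against control DESeq2 called 5 members higher and 10 lower (20.3%, beside 33.2% of all genes). Without the count filter 1 was higher and 4 lower (6.67%, beside 8.8%). With only the groups compared 0 were higher and 1 lower (1.35%, beside 7.86%). The GC offset gave 3 higher and 9 lower (16.2%, beside 27.5%). The library set as a covariate gave 1 higher and 2 lower (4.05%, beside 13%). With RLE scaling 2 were higher and 6 lower (10.8%, beside 23.9%). Fits within 1 set have a group of 1 sample, so no count is given. Leaving out 1 sample gave 0 to 18 higher and 0 to 17 lower, that is 0% to 47.3% of the members beside 9.33% to 48.4% of all genes. Between 135 and 405 min, DESeq2 gave 3 higher and 1 lower (5.41%, beside 14.3% of all genes). Only the groups compared gave 12 higher and 5 lower (22.7%, beside 26.3%). Leaving out 1 sample gave 0 to 4 higher and 0 to 3 lower, beside 0.408% to 13.4% of all genes. At 45 min no setting gave a call of a member, and at 135 min the library set as a covariate gave 1 lower (beside 7.93% of all genes). The cause of these shifts was not tested.

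Of 24 settings, Mrpl52 kept its call in 18, Mrpl33 in 17, Mrpl36 in 15, Mrpl28 in 14, Mrpl18 and Mrpl34 in 13, Mrps18a in 7 and Mrpl50 in 4.

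With the replicate number as a block, 0 members were called higher and 0 lower at 405 min, beside 7.79% of all genes. No pairing by number was seen: deviations of same-numbered samples had a mean correlation of −0.11 (19 pairs), and 2 of 15 samples correlated best with their own number. Samples of the same number often lie in different library sets, which can hide a shared culture or day, so this check cannot exclude a pairing.

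With the median over the genes in place of the mean, the change of the large minus small difference was 0.065 at 45 min, 0.074 at 135 min and 0.078 at 405 min, in place of −0.112, −0.084 and −0.139. With at most 5 samples a group, the 95% interval at 405 min lay within 1 log2 unit of 0 for 44 of 74 members.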
